A study of Mus musculus with 2 samples.

Results

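The genes described here are the ligands, receptors, SMAD proteins, latent binding proteins, antagonists and ID target genes of the TGF-beta, BMP and activin pathways, read in lungs that carried tumour cells with or without extra TDAG8. They are a list of 43 genes, drawn up by gene name with earlier results of these data known, and every probe set that the platform annotation assigned to 1 of them alone was used. Of the 43 genes 42 had such a probe set. The analysis set a floor for dim signals at the median intensity of each array, and 39 of these genes exceeded it on 1 array or more and 37 on both. The whole series held 18193 genes by the same count, of which 11942 exceeded the floor on 1 array or more and are called measured. The remaining gene, Gdf15, was not analysed here.

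Both groups were whole lungs of C57BL/6 mice aged 6 to 8 weeks, taken 19 days after 500000 Lewis lung carcinoma (LLC) cells in 200 µL had been given by tail vein. These cells, a carcinoma line from mouse lung, form lung tumours when they enter the blood. In the group named Control LLC lung the cells had been transfected with vector alone, and in the group named TDAG8 LLC lung they overexpressed TDAG8, a proton-sensing receptor encoded by Gpr65. Both groups therefore carried LLC cells, and no lung without tumour cells was included. Each group was a single pool of RNA from 10 lungs, hybridised to 1 array. No difference could therefore be tested or given an error: each describes these 2 pools, whose number limits the precision. The RNA was of whole lung, so fewer cells of a type and less RNA per cell cannot be told apart. The labelled tissue showed its defining genes on both arrays: the surfactant gene Sftpc read 7476 and 6605 and the club cell gene Scgb1a1 10112 and 8731 in control and TDAG8.

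Ligands of this family are secreted dimers that bring together type I and type II receptor kinases on the cell surface. The TGF-beta and activin side passes the signal mainly through SMAD2 and SMAD3, the BMP side through SMAD1, SMAD5 and SMAD9, and both share SMAD4. TGF-beta is kept latent in the matrix by binding proteins, antagonists trap BMPs and activins outside the cell, SMAD6 and SMAD7 damp the signal inside it, and the ID genes are classic direct targets of BMP signalling. In lung, BMP signalling through ALK1, endoglin and BMPR2 is known for its role in vessels, and TGF-beta for its role in fibroblasts and matrix.

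Upstream sequences are shown for 5 members known as targets of the pathway, chosen after their values were seen because all 5 were lower on the TDAG8 array, so that the letters before their starts can be read beside those values. Each is the 250 bases before the annotated start, from RefSeq, build GRCm38.p6, 5′ to 3′ on the gene's strand. Capitals mark GGCGCC, a palindrome that forms the core of GC-rich SMAD sites, and CAGAC with its reverse complement GTCTG, which contains the SMAD box; the 2 motifs can share a base.
Id2, chr12:25096093-25096342, minus strand: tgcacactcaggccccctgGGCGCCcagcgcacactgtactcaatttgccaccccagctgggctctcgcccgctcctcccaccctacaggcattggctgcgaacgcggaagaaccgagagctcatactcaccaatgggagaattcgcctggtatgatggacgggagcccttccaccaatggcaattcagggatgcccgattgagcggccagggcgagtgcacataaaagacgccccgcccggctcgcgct
Id3, chr4:136143572-136143821, plus strand: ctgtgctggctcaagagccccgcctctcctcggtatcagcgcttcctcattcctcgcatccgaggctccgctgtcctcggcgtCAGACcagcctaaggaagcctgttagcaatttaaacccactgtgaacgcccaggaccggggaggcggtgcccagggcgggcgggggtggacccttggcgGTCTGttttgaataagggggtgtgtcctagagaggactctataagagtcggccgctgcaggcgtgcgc
Id4, chr13:48260866-48261115, plus strand: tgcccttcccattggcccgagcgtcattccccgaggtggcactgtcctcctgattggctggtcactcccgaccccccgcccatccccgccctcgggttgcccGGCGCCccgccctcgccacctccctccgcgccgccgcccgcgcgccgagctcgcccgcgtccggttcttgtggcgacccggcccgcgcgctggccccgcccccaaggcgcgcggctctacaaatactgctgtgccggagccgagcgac
Smad6, chr9:64022060-64022309, minus strand: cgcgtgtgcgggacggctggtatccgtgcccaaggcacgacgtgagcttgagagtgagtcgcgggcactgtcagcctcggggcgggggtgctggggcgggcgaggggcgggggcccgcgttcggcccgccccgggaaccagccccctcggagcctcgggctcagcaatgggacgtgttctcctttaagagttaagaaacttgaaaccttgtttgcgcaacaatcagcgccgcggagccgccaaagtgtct
Eng, chr2:32646345-32646594, plus strand: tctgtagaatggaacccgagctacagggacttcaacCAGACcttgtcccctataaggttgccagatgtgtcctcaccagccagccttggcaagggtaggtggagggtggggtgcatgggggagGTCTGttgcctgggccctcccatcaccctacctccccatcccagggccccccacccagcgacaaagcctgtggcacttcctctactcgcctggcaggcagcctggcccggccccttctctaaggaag
GGCGCC began 231 bases before the start of Id2 and 148 bases before that of Id4. CAGAC or its complement began 167 and 68 bases before the start of Id3, and 214 and 127 bases before that of Eng. Neither motif was in the window of Smad6. GGCGCC was in 9.59% of all 32851 windows of this length and in 12.3% of the 21262 windows of protein-coding genes. CAGAC or GTCTG was in 42.2% of all windows, so that motif is common. Of the 43 members 31 had windows in this set, 38 in all, of which 10 held GGCGCC (26.3%) and 18 held CAGAC or its complement (47.4%). A match describes letters only, and says nothing about binding.

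More members were lower than higher on the TDAG8 array, and most differences were small. Values are log2 ratios of TDAG8 over control, centred on the median of all genes that exceeded the floor on both. Of the 39 measured members 26 had a ratio below 0 and 13 above 0, while 50.1% of all measured genes were below 0 and 49.9% above. The members' median was -0.21 against -0.00 for all measured genes. Only Gdf10 was at least 2-fold lower, 1 of 39 beside 1.20% of all genes. No member was counted as at least 2-fold higher, a size reached by 5.41% of all genes. At the smaller size of 1.5-fold, 8 members were lower and 1 was higher, beside 12.1% and 14.4% of all genes. The 8 lower members were Bmp4, Bmp5, Bmp6, Gdf10, Acvrl1, Smad6, Ltbp4 and Id4, and the higher one was Bmp1. The other 30 members were counted within 1.5-fold. Among them Inhba and Grem1 were below the floor in control, so their ratios are lower bounds and may be larger. Under a lower floor, the 30th percentile, they were at 1.73 and 0.997.

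**Figure D1:**
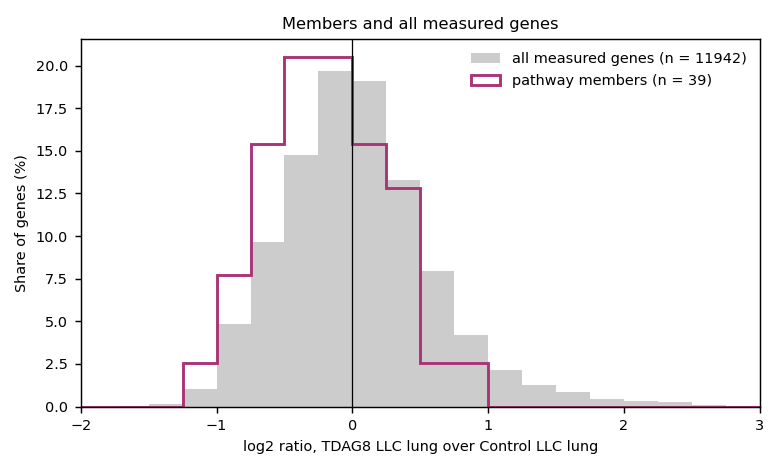
Distribution of the log2 ratio of TDAG8 LLC lung over Control LLC lung (x axis, bins of 0.25) as a share of genes in percent (y axis), for all 11942 measured genes in grey and the 39 measured members as a line. The members are drawn between -1.13 and 0.82, with Inhba and Grem1 at lower bounds, and none is drawn at 2-fold higher or more.

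Of the ligands, the 4 counted past 1.5-fold in the main setting were all BMP-family genes and all lower on the TDAG8 array. The TGF-beta genes lay within 1.5-fold. Gdf10, also called BMP3B, a divergent member of the BMP family, read 93.5 in control and 41.0 in TDAG8, 2.19-fold lower. Its only probe set lay not far above the floor, and the log2 ratio of -1.13 was -0.60 under a higher floor, the 65th percentile, and -0.81 with an offset in place of the floor. Bmp6, a ligand best known for its control of iron through hepcidin, went from 436 to 213, 1.96-fold lower. Bmp4, which shapes lung branching in the embryo, read 307 and 175, 1.68-fold lower. Bmp5, a ligand closely related to Bmp6, read 354 and 202, also 1.68-fold lower, and its other probe sets gave 271 and 140, and 119 and 67.0. All 3 probe sets of Bmp5 thus lay between -0.89 and -0.75. Bmp2, which pairs with the same receptors as Bmp4, was dim and read 41.4 and 49.0, a log2 ratio of 0.30. Bmp7 lay below the floor on both arrays.

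Tgfb1, the main TGF-beta of immune cells and platelets, was 321 in control and 389 in TDAG8, a log2 ratio of 0.34. Tgfb2 read 109 and 91.7, at -0.19, and Tgfb3 read 163 and 136, at -0.21. The TGF-beta isoforms therefore differed in sign, each within 1.5-fold. A dim probe set of Tgfb2, above the floor on the TDAG8 array alone, gave a lower bound of 0.16. Of the activin subunits, Inhba was below the floor in control at 4.7 and read 27.4 in TDAG8, just above the floor of 24.3. That makes it at least 1.08-fold higher, and under a lower floor, the 30th percentile, the lower bound of the log2 ratio was 1.73. Inhbb, the activin B subunit, read 138 and 161 with 1 probe set and 63.4 and 36.7 with another. Those probe sets gave 0.28 and -0.73, so no direction can be given for Inhbb. The median of the 10 measured ligands was -0.20, with 6 below 0 and 4 above.

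Bmp1 is named as a BMP but is a metalloprotease that trims procollagens and frees BMPs by cutting the antagonist chordin. It had the highest ratio of the members in the main setting, from 122 in control to 207 in TDAG8, 1.77-fold higher. A second, dimmer probe set read 34.2 and 71.8, a log2 ratio of 1.13, and was the 1 member probe set measured on both arrays that passed 2-fold upward.

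**Figure D2:**
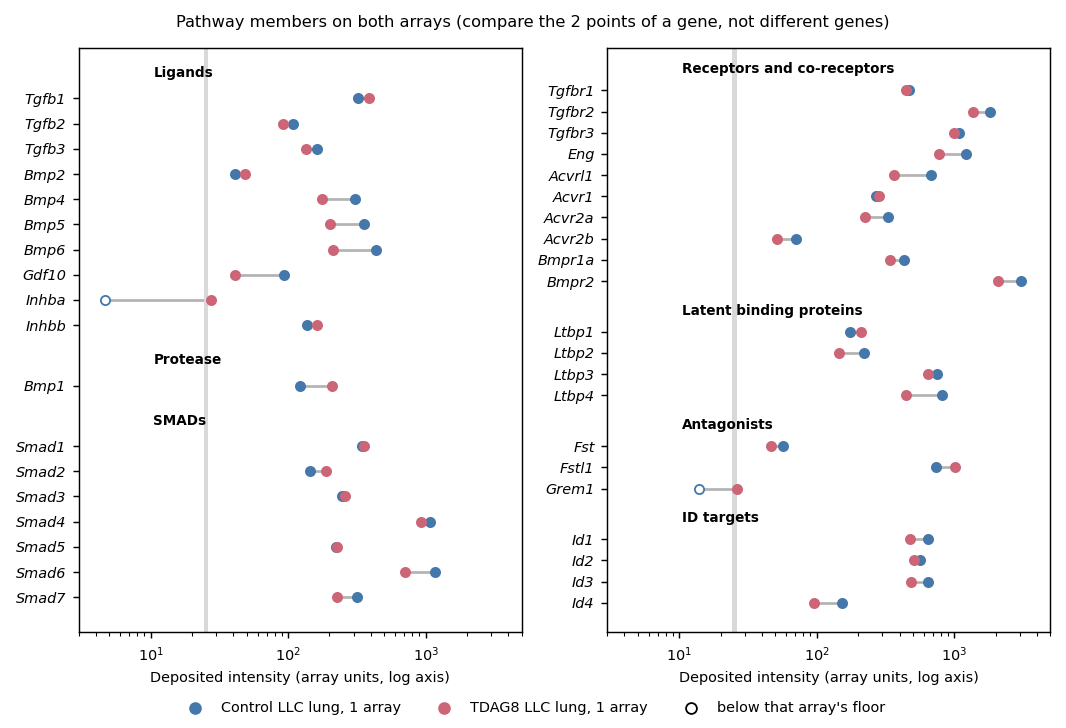
Deposited intensity of each measured member (x axis, array units, log scale) on the control array in blue and the TDAG8 array in red, by role; open points lie below that array's floor, and the grey band spans the floors of 24.3 and 26.3. Gdf10, Bmp4, Bmp5, Bmp6, Acvrl1 and Ltbp4 show wide gaps with control higher, and Bmp1 and Fstl1 gaps with TDAG8 higher. Inhba (4.7 and 27.4) and Grem1 (14.0 and 26.5), below the floor in control, show wider gaps with TDAG8 higher than Bmp1 and Fstl1.

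Among the receptors 9 of 10 had ratios below 0, with a median of -0.39. Acvrl1, the type I receptor ALK1 of endothelial cells, read 678 in control and 366 in TDAG8, 1.78-fold lower, and a second probe set read 330 and 203, at -0.64. Eng, the co-receptor endoglin that works with ALK1, read 1213 and 779, a log2 ratio of -0.58, just short of the 1.5-fold limit. Its second probe set, 465 and 265, was past it at -0.75. Bmpr2, the type II BMP receptor altered in heritable pulmonary hypertension, read 3039 and 2073, at -0.49, and its 3 probe sets spanned -0.71 to -0.49. The control array was thus the higher one in every probe set of these 3 genes.

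Among the other receptors, the activin type II receptor Acvr2b read 71.2 and 51.2, at -0.42, a value that was -0.21 under the higher floor. Acvr2a read 331 and 226, at -0.49, but its second, dimmer probe set read 64.0 and 61.8, at 0.01. The BMP type I receptor Bmpr1a read 434 and 342, at -0.29, and all 4 of its probe sets above the floor were below 0. The TGF-beta type II receptor Tgfbr2 read 1827 and 1358, at -0.37. Its type I partner Tgfbr1 read 470.2 and 445, at -0.02, and the co-receptor Tgfbr3, betaglycan, read 1083 and 989, at -0.07. Acvr1, the BMP type I receptor ALK2, was the exception above 0, with 270 in control and 283 in TDAG8, at 0.13.

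The SMAD genes had no shared direction. Their median was 0.08 over 7 measured genes, 4 above 0 and 3 below. It turned to -0.14 when probe sets with _s, _x or _a suffixes were left out. The BMP-side SMADs were near the centre: Smad1 read 345 and 354, at 0.10, and Smad5 read 222 and 226, at 0.08. Smad9 lay below the floor on both arrays. On the TGF-beta side Smad3 read 245 and 257, at 0.13. Smad2 read 145 and 187 with 1 probe set and 72.2 and 49.3 with another, log2 ratios of 0.43 and -0.49, so its direction is not settled. Smad4, the shared partner, read 1078 and 928, at -0.16. Both Smad1 and Smad5 also had probe sets on either side of 0.

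Of the inhibitory SMADs, Smad6, which blocks the BMP side and is induced by it, read 1161 in control and 704 in TDAG8, 1.58-fold lower on its only probe set. Smad7, which blocks both sides, read 315 and 226, at -0.42, whereas a dimmer probe set with an _x suffix read 44.4 and 71.1, at 0.74. Without suffixed probe sets Smad7 was at -0.40. The mean over both probe sets gave 0.17, so no direction is given for Smad7.

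Latent binding proteins, which hold TGF-beta in the matrix, were lower in 3 of 4 cases, with a median of -0.34. Ltbp4, which is needed for elastic fibres in lung and binds latent TGF-beta 1, read 819 and 446, 1.76-fold lower. Ltbp2, a partner of microfibrils that does not bind latent TGF-beta, read 222 and 146, at -0.54. Ltbp3 read 746 and 649, at -0.14, and a second probe set was at -0.24. Ltbp1 read 175 and 209, at 0.31, and was the only one of the 4 above 0.

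Of the antagonists, Grem1 and Nog were at or under the floor in control. Fstl1, a secreted follistatin-like glycoprotein of mesenchymal cells that binds BMP4, read 731 in control and 1020.4 in TDAG8. Its log2 ratio of 0.54 was matched by a second probe set that read 537 and 747, at 0.53. Fst, follistatin, which traps activins, read 57.2 and 46.5, at -0.24, while a second probe set above the floor on the TDAG8 array alone gave a lower bound of 0.20. The BMP antagonist Grem1 was below the floor in control at 14.0 and read 26.5 in TDAG8, at least 1.05-fold higher. Nog, noggin, lay below the floor on both arrays.

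All 4 ID genes had ratios below 0 in the main setting and under each of the 8 alternatives that gave them a value, with a median of -0.36. The ID proteins bind helix-loop-helix factors and stop them from binding DNA. Id1 read 644 in control and 479 in TDAG8, at -0.37. Id3 read 644 and 486, at -0.35, close to Id1. Id4 read 152 and 94.8, 1.54-fold lower, and its 3 probe sets spanned -0.62 to -0.42. Id2, which is also induced outside this pathway, read 567 and 506, at -0.11. The genes Id2, Id3, Id4, Smad6 and Eng, whose upstream sequences are given above, ranged from -0.66 to -0.11.

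**Figure D3:**
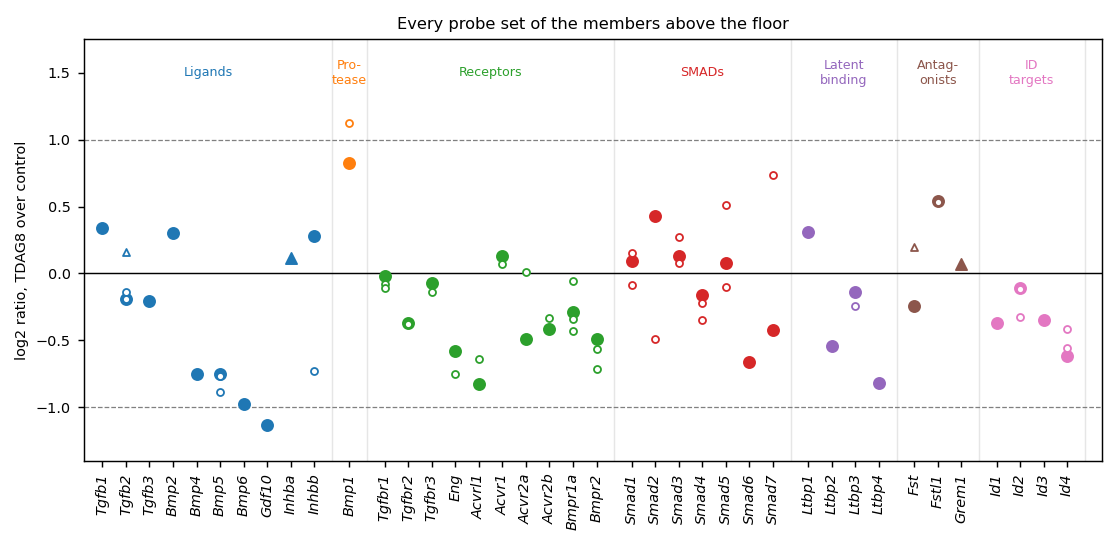
Log2 ratio of TDAG8 over control (y axis) for every probe set of the members above the floor, by gene (x axis) and role (colour); large filled points stand for the gene, small open points are its other probe sets, triangles are bounds with 1 array below the floor, and dashed lines mark 2-fold. Bmp5, Eng, Acvrl1, Bmpr2 and Id4 keep all points below 0, whereas Inhbb, Smad2 and Smad7 have points on both sides.

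Most members were read by more than 1 probe set. Of their 94 probe sets 73 exceeded the floor on both arrays, 4 on the TDAG8 array only and 17 on neither. Of those 73 probe sets 53 were below 0 and 20 above. Among the 24 members with 2 or more of those 73 probe sets, 18 had a single sign throughout. The 6 that did not were Inhbb, Acvr2a, Smad1, Smad2, Smad5 and Smad7. Probe sets of a gene share the same RNA and are not replicates. A gene with several probe sets enters the count of 73 more than once. Counted by gene, 26 of 39 members were below 0, beside 50.1% of all measured genes. The counts by probe set and by shared sign were not made over all genes.

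Markers of several cell types differed between the arrays as well. All 7 endothelial markers were lower on the TDAG8 array, from -0.82 to -0.40 with a median of -0.63, and their summed intensity was 5705 in control and 3524 in TDAG8. That range holds the main values of Bmp4, Bmp5, Eng, Bmpr2, Acvr2a, Acvr2b, Smad6, Smad7, Ltbp2, Ltbp4 and Id4. Of all measured genes, 3.89% lay below its lower end and 20.8% below its upper end, so many other genes fall in it too. Further probe sets lay outside it for Acvr2a at 0.01, Smad7 at 0.74, Bmp5 at -0.89 and Acvr2b at -0.33. Acvrl1 lay just outside it at -0.83. The range is of main values, and a second probe set of the marker Cdh5 was at -1.29. All 5 smooth muscle markers were lower too, from -1.16 to -0.30 with a median of -0.67 and sums of 2717 and 1875. This wider range holds the main values of all members named for the endothelial range. It also holds those of Gdf10, Bmp6, Acvrl1, Tgfbr2, Id1 and Id3. Of all measured genes, 0.31% lay below its lower end and 27.3% below its upper end. Of 6 fibroblast markers 4 were below 0, with a median of -0.32 and sums of 8436 and 7970.1. All 7 monocyte and macrophage markers were higher, with a median of 1.27 and sums of 1826 and 2819. The 5 measured markers of cycling cells had a median of 2.52 and sums of 590 and 3013. Of 5 platelet markers 4 were below 0, with a median of -0.18, which is the bound of Gp9, and sums of 713 and 753. The exception, Pf4, read 288.9 and 442.5, at 0.67. All 4 lung tissue genes were below 0, with a median of -0.33. Msr1 among the macrophage markers was below the floor in control and Gp9 among the platelet markers was below it in TDAG8, and none of the measured markers was at 0 on either array. The part of these cell types in the pathway values was not tested.

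**Figure D4:**
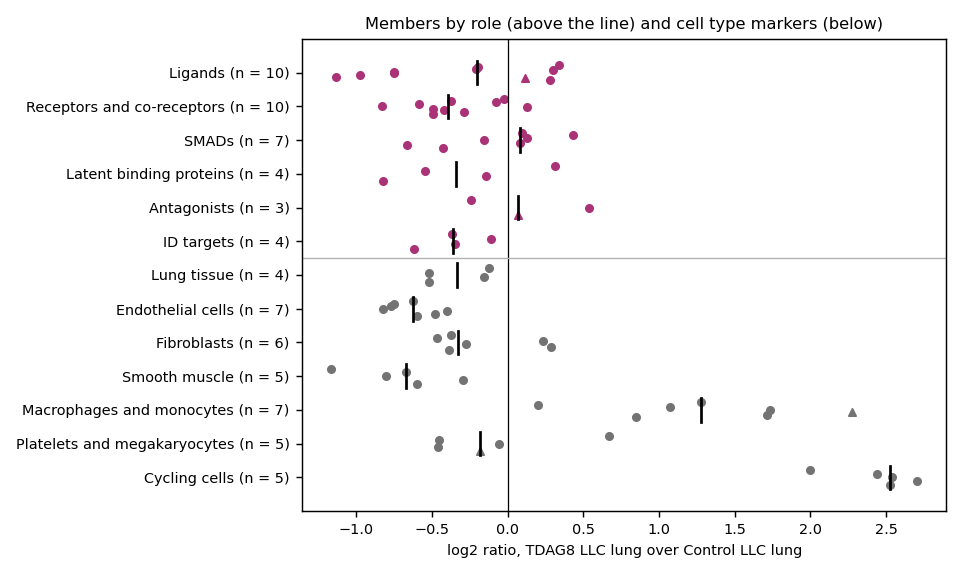
Log2 ratio of TDAG8 over control (x axis) for measured members by role in purple and for cell type markers in grey (y axis, with the number of genes); black bars are medians and triangles are bounds. The medians of ligands (-0.20), receptors (-0.39), latent binding proteins (-0.34) and ID targets (-0.36) lie below 0. So do those of lung tissue (-0.33), fibroblast (-0.32), endothelial (-0.63), smooth muscle (-0.67) and platelet (-0.18) markers. Those of SMADs (0.08), antagonists (0.07), macrophage (1.27) and cycling cell (2.52) markers lie above it. The antagonist and platelet medians are the bounds of Grem1 and Gp9, so the floor sets them.

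Genes of the same pathways outside the 43 were read from lists of TGF-beta targets, further ligands, receptors, extracellular regulators and intracellular regulators. Of 71 further genes 63 had a probe set and 44 were measured, with 24 below 0, 20 above and a median of -0.10. At 2-fold, 4 of the 44 were higher and 0 lower, beside 5.41% and 1.20% of all measured genes. Lefty1, a secreted inhibitor of nodal signalling, read 75.2 and 192, 2.65-fold higher on its only probe set. Htra1, a secreted serine protease that binds TGF-beta family ligands, read 384 and 858, 2.33-fold higher. Tgif1, a corepressor of SMAD2 and SMAD3, read 95.6 and 193, 2.10-fold higher.

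Target genes of TGF-beta went both ways, with 4 of 11 above 0 and a median of -0.18. Tgfbi, a matrix protein named for its induction by TGF-beta, read 653 in control and 1403 in TDAG8, 2.23-fold higher, and its 4 probe sets spanned 0.84 to 1.16. Thbs1, which can activate latent TGF-beta, read 267 and 418, at 0.70, and Fn1, fibronectin, read 1251 and 1535, at 0.35. In the other direction, Ccn2, connective tissue growth factor, read 1383 and 866, at -0.62. The cell cycle inhibitor gene Cdkn2b read 148 and 78.4, at -0.86, the smooth muscle gene Tagln 873 and 532, at -0.66, and Pmepa1, a feedback inhibitor of SMAD signalling, 227 and 156, at -0.49. The remaining targets, Skil at -0.18 with a second probe set at 0.23, Cdkn1a at 0.05, Ccn1 at -0.08 and Col1a1 at -0.38, were within 1.5-fold. Of the 11 targets 2 (18.2%) were at least 1.5-fold higher and 3 (27.3%) lower, beside 14.4% and 12.1% of all measured genes. With so few genes these shares say little about the list.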

How the data were processed

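Total RNA of whole lungs, 10 pooled per array, was labelled with biotin from 2 µg by the Affymetrix procedure, which primes at the poly(A) tail, per the labels' protocols. The deposited values are linear intensity values per probe set, and in both columns their mean after leaving out 2% at each end is 100, so both arrays share a target scale. Of the software that made them, the name was not given in the sources used here. No detection calls came with the values, and each column matched 1 sample.

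Of 45037 probe sets that are no controls, 34945 had 1 gene symbol in the platform annotation. Symbols were updated by gene identifier with RefSeq (GRCm38.p6) for 34741. Probe sets with several genes were left out, 1 of them naming a member. Each gene was represented by its probe set of highest mean log2 intensity. Values under each array's 50th percentile, 26.3 in control and 24.3 in TDAG8, were raised to it, so a ratio against them is a lower bound written "at least". The median of the TDAG8 column differed from that of control by -0.11 in log2 units, over the limit of 0.1, so ratios were centred by -0.06. Folds are ratios after centring. There was no test, with 1 array per group. Each of the 43 members was named, with both intensities if above the floor on either array, and of the other pathway genes those past 2-fold and examples. The members and all lists were chosen with earlier results of these data known. The 8 alternatives were ratios left uncentred, quantile-normalized columns, a loess fit (span 0.3) in place of the median, a lower floor (30th percentile), a higher floor (65th percentile), an offset at the 50th percentile added in place of a floor, the mean over a gene's probe sets, and leaving out probe sets with _s, _x or _a suffixes. The steps were tested on simulated data. Python 3.11.15, pandas 2.3.3 and statsmodels 0.14.6 were used.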

Additional observations from a re-analysis of the deposited data

How the results depend on the processing

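No paired analysis was possible because each group had 1 array. Of the 39 members with a value, 36 kept their sign under every alternative that gave one, including all 8 that were at least 1.5-fold lower. The 3 that did not were Inhbb, Smad2 and Smad7. Bmp4, Bmp6, Gdf10, Smad6 and Ltbp4 had 1 probe set each, so the alternatives that change probe sets could not turn their sign. Tgfbr1 and Fst kept theirs narrowly, with values up to -0.0001 and -0.003. The count of members at least 2-fold lower, 1 in the main setting, was 2 without centring and with quantile normalization, where Bmp6 also passed 2-fold, at -1.03 without centring, and 0 under the higher floor (65th percentile) and with an offset. The count at least 2-fold higher, 0, was 1 under the lower floor (30th percentile), through Inhba. The SMAD median turned from 0.08 to -0.14 without suffixed probe sets, where Smad2 was represented by its other probe set at -0.47. Under the higher floor the ligand median was -0.41 over 8 genes, and the antagonist median was 0.52 over 1 gene. With an offset the antagonist median was 0.40. Among the further pathway genes 2 were at least 2-fold higher without suffixed probe sets, and 1 was at least 2-fold lower under the lower floor. The median of all members ranged from -0.26 without centring to -0.17 with an offset. The ratios of Inhba, Grem1, Gdf10 and Acvr2b moved with the floor, and Bmp2 and Fst had no value under the higher one; 1 array per group sets the limit on every value.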

Other observations

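Of 6 measured further receptors 5 were below 0, among them the BMP type I receptor Bmpr1b, which read 53.1 in control and 30.4 in TDAG8, at -0.75, and the BMP co-receptors Rgma at -0.46 and Rgmb at -0.36, where 1 of its 5 probe sets above the floor was at 0.00. Acvr1b, the activin type I receptor ALK4, read 357 and 328, at -0.06. Hjv, also below 0, was under the floor in TDAG8 and at least 1.21-fold lower. The exception, Amhr2, read 85.7 and 105, at 0.35, and a second probe set was at 1.02, past 2-fold. Gdf2, the circulating ligand BMP9 that ALK1 and endoglin bind, read 34.3 in control and 20.3, below the floor, in TDAG8, at least 1.36-fold lower. Of 12 measured further antagonists and extracellular regulators 7 were above 0 and 5 below, with a median of 0.09. The BMP regulators Nbl1, at -0.67, Bmper, at -0.46, and Twsg1, at -0.35, and the pseudoreceptor Bambi, at -0.38, were below 0, and the activin antagonist Fstl3, at 0.11, above it. The BMP antagonist Chrdl1 was at 0.16 with 1 probe set and -0.68 with another.

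Among genes of TGF-beta activation, the integrin gene Itgav read 741 and 951, at 0.42, and Nrros, which tethers latent TGF-beta on myeloid cells, 162 and 225, at 0.53. The 2 probe sets of Itgb6 above the floor were at 0.27 and -0.36, so no direction is given for it. Furin, which cuts the precursors, was at -0.12. Among intracellular regulators Strap was at 0.83 and Tgif2 at 0.88, while Hipk2 was at -0.63, Zeb1 at -0.39 and Smurf2 at -0.34.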
